A study of Mus musculus with 12 samples.

Results

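Integrin and laminin subunit genes were followed across 4 treatments of cultured mouse glia. The members were all genes of the deposited tables whose symbol is that of an integrin alpha chain, an integrin beta chain or a laminin alpha, beta or gamma chain. The rule found 37 genes (18 alpha chains, 8 beta chains and 11 laminin chains) among 18876 genes listed in any library, and used no measured value other than being listed at least once. Of the 37, 32 had enough counts to be tested. Itga11, Itgad, Itgae, Itgal and Itgb6 did not.

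The cells were primary oligodendrocyte progenitor cells from the brain of wild-type mice, and RNA was taken after 12 h. The vehicle group received DMSO alone. The other 3 groups all received hemin at 50 µM, an oxidised heme with iron at its centre. One of them had hemin alone, one had interleukin-10 (IL-10), an anti-inflammatory cytokine, added at 10 ng/mL, and one had IL-10 at 10 ng/mL and stattic, a small-molecule inhibitor of STAT3, at 2.5 µM. There were 3 libraries in each group. They are called V1 to V3 (vehicle), H1 to H3 (hemin), I1 to I3 (hemin with IL-10) and S1 to S3 (hemin with IL-10 and stattic), by replicate number. The labels give no age, culture or animal for a replicate. If the replicates are not separate cultures, the p-values reflect technical variation alone. No group received IL-10 or stattic without hemin.

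Integrins are receptors made of 1 alpha and 1 beta chain that hold a cell to the matrix or to other cells and signal through talins, kindlins and focal adhesion kinases. Laminins are secreted trimers of an alpha, a beta and a gamma chain that build basement membranes and are integrin ligands. In the oligodendrocyte lineage the receptor encoded by Itga6 and Itgb1 binds laminin and is known for its part in survival and myelination, the laminin chain encoded by Lama2 is known from a muscular dystrophy with white matter changes, and the beta chains encoded by Itgb1, Itgb3, Itgb5 and Itgb8 pair with the alpha chain encoded by Itgav.

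Library totals ran from 9404448 to 10266653 expected counts, and 31 to 37 of the 37 genes were listed in each. Levels between genes are compared as FPKM, the authors' length-scaled value. Groups are mostly compared as CPM, read counts scaled to a common library size with TMM factors (trimmed mean of M values). The library values of Itgb1, Itgav, Itgb5, Itga6, Itga5, Itga7, Lamc1, Lama5 and Lamb2 are given as FPKM, without TMM factors. Their log2 changes come from counts with TMM factors, so the 2 scales can differ. Values after ± are SD over 3 libraries (n = 3). A gene was called where the p of edgeR's quasi-likelihood test, adjusted by Benjamini-Hochberg over all 13967 genes tested, was under 0.05. The 10 progenitor markers had counts in all 12 libraries and summed to 4895 to 7065 CPM in vehicle and 1025 to 3104 CPM in the hemin-treated libraries. Ptprz1 alone had a mean of 2594 CPM in vehicle and 1389 with hemin. Against vehicle, 3 of the 10 were called lower with hemin, 6 with IL-10 and 4 with stattic, and 0 higher. Over all genes, 9.15%, 8.81% and 10.2% were called lower. With hemin, 8 had a log2 change below 0 and 2, Lhfpl3 and Vcan, above 0. Astrocyte markers summed to 922 to 6425 CPM and markers of myelinating oligodendrocytes to 321 to 10830 CPM. By transcript length 2 libraries stood apart: against the vehicle mean, genes with transcripts of at least 5184 bases lay at a median log2 difference of -0.46 in H1 and -0.86 in S3, and at -0.20 to -0.09 in the other 7 libraries with hemin. The tested members are long, with a median transcript length of 5787 bases against 3138 over all genes tested, and 18 of 32 are among these long genes.

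The vehicle-treated cells expressed a small set of these genes strongly. In vehicle, Itgb1, the beta chain that pairs with most matrix-binding alpha chains, was the highest at 166 ± 5.11 FPKM, and its lowest library lay above the highest library of each of the others. Itgb5 followed at 45.1 ± 3.12, Lamc1 at 44.7 ± 10.6, Itgav at 39.4 ± 8.97, Itgb8 at 34.9 ± 3.99 and Itga6 at 26.5 ± 11.8 FPKM, and the libraries of each neighbouring pair in this order overlapped. Itga7, at 10.6 ± 4.36 FPKM, lay below Itga6 in each vehicle library, and Itga7, Itga5 (10.5 ± 8.61), Lamb2 (10.3 ± 4.69) and Lama5 (8.34 ± 3.40) overlapped one another. Itga5 varied most among them and also overlapped Itga6. These genes and Lamb1, which reached 5 FPKM with hemin, made up the 11 members with a group mean of at least 5 FPKM. The strongly expressed chains could in principle form receptors for fibronectin (Itga5 with Itgb1), laminin (Itga6 or Itga7 with Itgb1) and Arg-Gly-Asp ligands (Itgav with Itgb1, Itgb5 or Itgb8), and a laminin trimer of Lama5, Lamb2 and Lamc1.

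**Figure D1:**
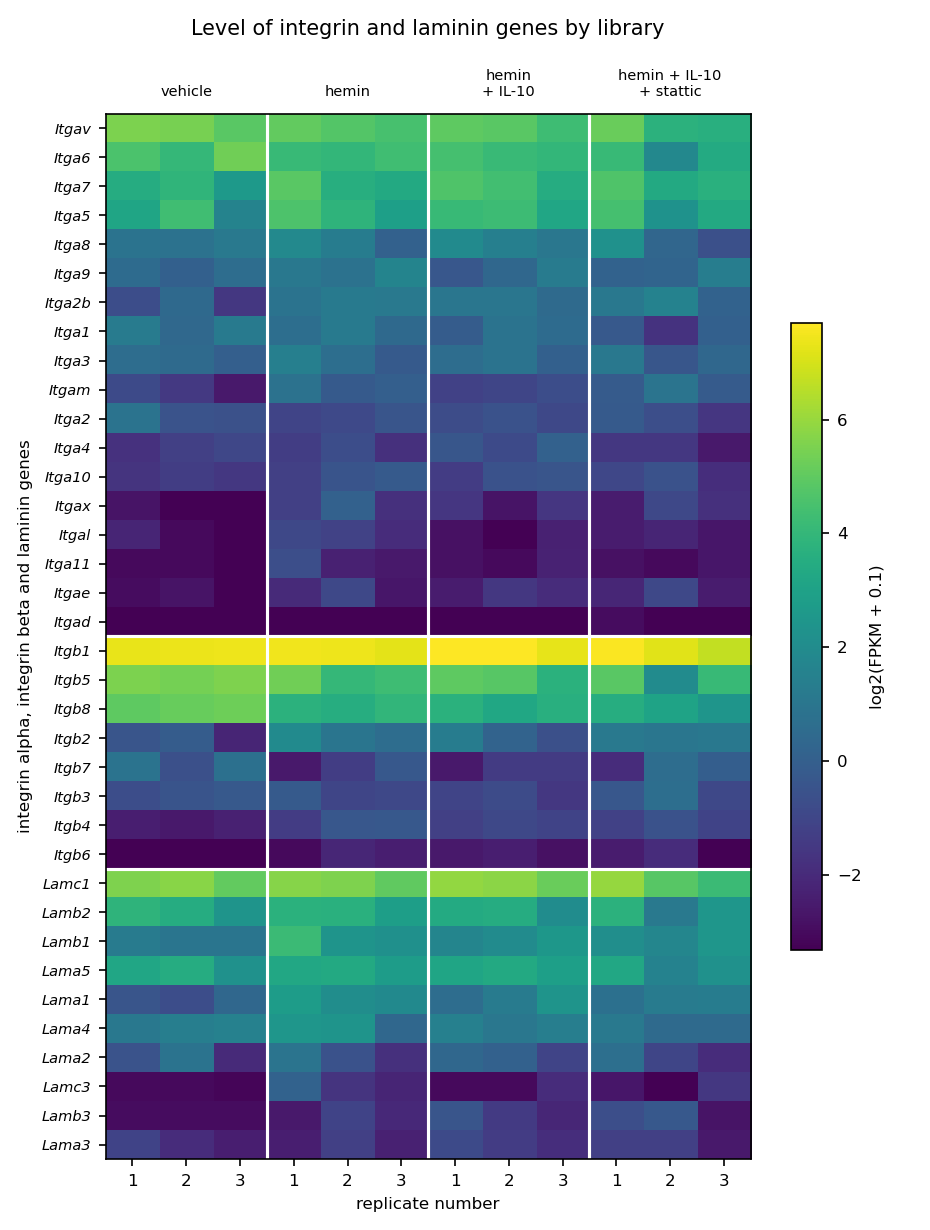
Level of 36 of the genes (rows, grouped as alpha, beta and laminin chains) in each of the 12 libraries (columns, by group and replicate), as colour on a scale of log2(FPKM + 0.1). Itgb1 was the brightest row in every library, and Itgad was listed in 1 library only.

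Relative to vehicle, hemin changed 10 of the 32 tested genes, 9 upward and 1 downward. Itgb8 fell. The leukocyte integrin chains Itgam, Itgax and Itgb2, the platelet chain Itga2b, the epithelial chain Itgb4, and the laminin chains Lama1, Lamb1 and Lamc3 were among those that rose, all from low vehicle levels. Over all genes tested, 20.9% were called in this comparison, 11.7% higher and 9.15% lower, against 31.2% of the members. At an unadjusted p under 0.05 there were 12 members, where 35.4% of all genes passed. The median log2 change was 0.50 over the members and 0.03 over all genes, at 0.62 for the 14 alpha chains, -0.10 for the 7 beta chains and 0.83 for the 11 laminin chains. The members' median moved with single libraries and with the scale: it was 0.13 without H1, 0.86 without H3 and 0.82 without V2, 0.75 with a correction of each library for transcript length, and 0.14 and 0.16 with limma on log2(FPKM + 1) and log2(FPKM + 0.1). The groups did not overlap for 12 genes in the upward and 1 in the downward direction, where 50.1% of all genes did not overlap (25.6% higher and 24.5% lower). In bulk RNA such as this, fewer cells of a type and less RNA per cell cannot be told apart.

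**Figure D2:**
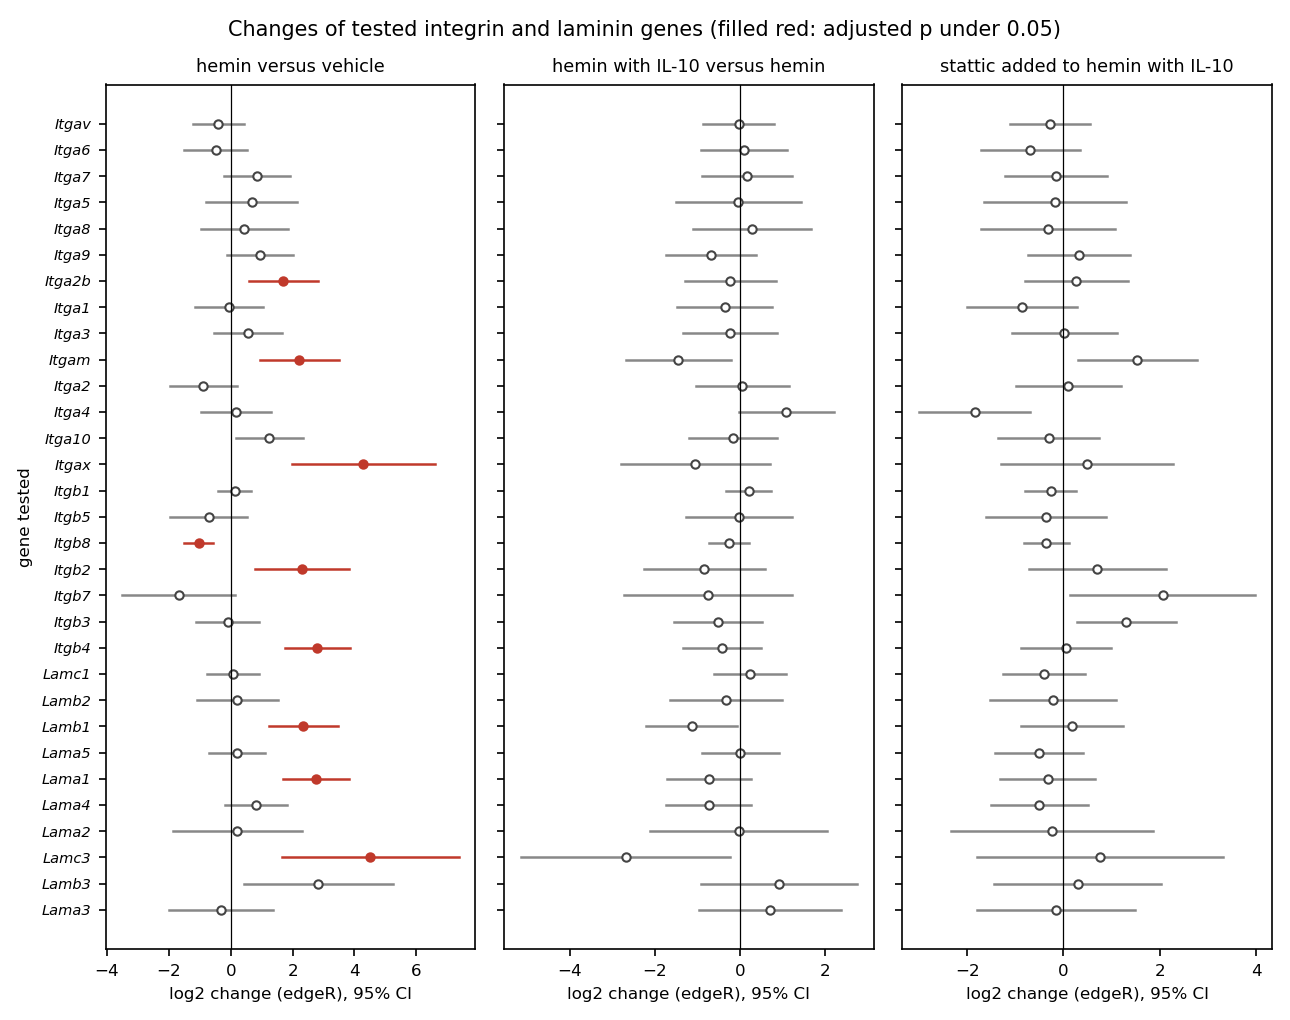
Log2 change of 31 tested genes (rows) in 3 comparisons (panels), with 95% confidence intervals from the edgeR fit, filled red where the adjusted p was under 0.05. In hemin versus vehicle 8 filled points lie to the right of 0 and Itgb8 lies to the left, and no point is filled in the other 2 panels.

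Itgb8, whose product pairs with the Itgav chain and is known for releasing active TGF-beta from its latent form, was the abundant member that fell. It was at 189, 209 and 244 CPM in V1, V2 and V3, 105, 93.5 and 114 with hemin, 93.7, 74.3 and 95.5 with hemin and IL-10, and 86.5, 66.0 and 53.9 with stattic added. Every library with hemin lay below every vehicle library. The change was -1.04 on the log2 scale for hemin (SE 0.22, adjusted p = 0.0076), -1.28 for hemin with IL-10 (adjusted p = 0.00286) and -1.64 for hemin with IL-10 and stattic (adjusted p = 0.001). These 3 comparisons share the vehicle libraries. Itgb8 transcripts are long, at 6560 to 8143 bases, and with a correction of each library for transcript length the hemin change was -0.77 (adjusted p = 0.0187). It was called in these 3 comparisons under each of the 24 alternative settings. The progenitor marker sum was also lower in the hemin-treated libraries (above). The myelinating oligodendrocyte sum was 2393 to 6478 CPM in vehicle, 321 to 1781 with hemin, 1133 to 2388 with IL-10 and 1453 to 10830 with stattic. The astrocyte sum was 2365 to 6425 CPM in vehicle, 2091 to 3036 with hemin, 922 to 2552 with IL-10 and 1148 to 4048 with stattic. The part of these cell types in the Itgb8 result was not tested.

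The other abundant receptor chains did not pass the test in any of the 5 comparisons. Itgb1 was at 160.1, 167 and 170.2 FPKM in vehicle, 178, 171 and 151 with hemin, 206, 208 and 156 with IL-10 added and 201, 147 and 102 with stattic added. Its hemin change had a narrow interval (log2 change 0.13, 95% CI -0.40 to 0.66), which excludes a 2-fold change in either direction. Itgav, the common partner of several beta chains, was at 45.9, 43.1 and 29.2 FPKM in vehicle, 33.0, 27.04 and 22.2 with hemin, 30.8, 29.1 and 19.4 with IL-10 and 36.2, 13.4 and 12.5 with stattic. Its vehicle and hemin libraries overlapped (log2 change -0.41, 95% CI -1.23 to 0.42).

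Itgb5, a vitronectin receptor chain, was at 45.8, 41.7 and 47.8 FPKM in vehicle, 39.2, 16.0 and 19.6 with hemin, 31.1, 28.3 and 13.0 with IL-10 and 29.8, 3.89 and 17.1 with stattic. H1 lay close under the vehicle libraries in FPKM and among them in CPM, and H2 and H3 were lower on both scales (log2 change -0.71, 95% CI -1.96 to 0.54). Itga6, the laminin receptor chain of the lineage, was at 23.7, 16.3 and 39.4 FPKM in vehicle, 17.0, 15.6 and 20.1 with hemin, 21.7, 17.4 and 15.8 with IL-10 and 17.2, 3.46 and 10.6 with stattic. The widest spread was in vehicle, where V3 was highest, and S2 was the lowest of all 12 libraries (log2 change -0.49, 95% CI -1.51 to 0.53 for hemin versus vehicle). Without S1, Itgav and Itga6 were called lower with stattic than in vehicle (adjusted p = 0.0119 and 0.0422, against 0.188 and 0.112 with all libraries).

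Itga5, the fibronectin receptor chain, was at 8.76, 19.9 and 2.92 FPKM in vehicle, 24.4, 14.3 and 7.31 with hemin, 17.0, 18.5 and 9.12 with IL-10 and 21.6, 4.78 and 10.3 with stattic. Itga7, a laminin receptor chain best known from muscle, was at 11.2, 14.6 and 5.97 FPKM in vehicle, 29.2, 12.1 and 10.3 with hemin, 25.2, 20.4 and 11.3 with IL-10 and 25.0, 10.3 and 12.6 with stattic. For both genes replicate 3 was the lowest vehicle, hemin and IL-10 library, and the intervals of the hemin change reached from a decrease to more than a doubling (log2 change 0.68, 95% CI -0.80 to 2.15 for Itga5 and log2 change 0.84, 95% CI -0.23 to 1.91 for Itga7).

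The laminin chains Lamc1, Lama5 and Lamb2 were abundant and not called in any comparison. Lamc1, the gamma chain of most laminins, was at 47.6, 53.6 and 32.9 FPKM in vehicle, 51.1, 46.9 and 32.0 with hemin, 60.5, 55.1 and 35.8 with IL-10 and 62.8, 28.8 and 18.2 with stattic. Lama5, an alpha chain of mature basement membranes, was at 8.98, 11.4 and 4.67 FPKM in vehicle, 9.66, 10.2 and 6.70 with hemin, 8.81, 10.1 and 7.47 with IL-10 and 9.77, 2.83 and 4.68 with stattic. Lamb2, a beta chain found at synapses and in vessel walls, was at 14.3, 11.4 and 5.14 FPKM in vehicle, 13.0, 12.8 and 7.18 with hemin, 10.6, 11.3 and 4.0 with IL-10 and 13.4, 2.07 and 5.37 with stattic. In each of the 3 genes vehicle and hemin libraries overlapped, with hemin changes of 0.08, 0.20 and 0.22 on the log2 scale (adjusted p = 0.907, 0.767 and 0.829). Within the hemin group, H3 held the lowest value for 8 of the 11 abundant genes, as did I3 for 9 of 11 in its group and S2 for 8 of 11. S2 also had the highest sum of myelinating oligodendrocyte markers, at 10830 CPM against 1453 in S1 and 3160 in S3, and the lowest progenitor sum, at 1025 CPM, and their part in these levels was not tested.

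**Figure D3:**
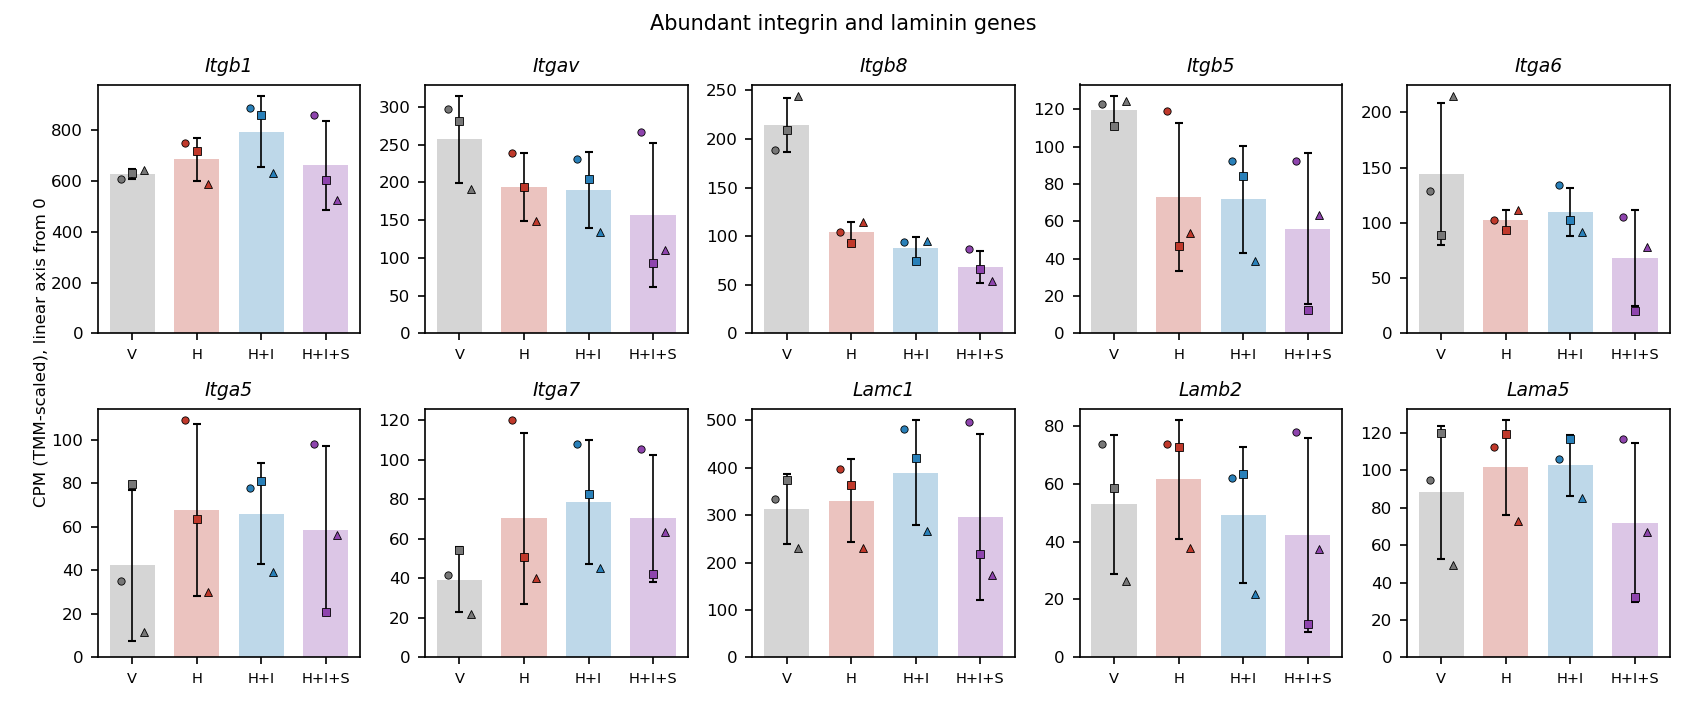
CPM of 10 abundant genes by group (V vehicle, H hemin, H+I hemin with IL-10, H+I+S hemin with IL-10 and stattic), with bars for the mean, error bars for the SD and circles, squares and triangles for replicates 1, 2 and 3. Itgb8 is the panel in which all hemin-treated points lie under the vehicle points and the test was passed in each comparison with vehicle.

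The laminin chains Lama1, Lamb1 and Lamc3 were low in vehicle and rose with hemin. Lama1, the alpha chain of early embryonic basement membranes, was at 5.75, 4.48 and 10.3 CPM in vehicle, 65.6, 40.3 and 33.0 with hemin, 14.2, 21.9 and 47.5 with IL-10 and 15.7, 22.2 and 28.7 with stattic. All 9 hemin-treated libraries lay above the vehicle libraries. It rose in all 3 comparisons with vehicle (log2 change 2.76, SE 0.49, adjusted p = 0.00336 for hemin, log2 change 2.03, adjusted p = 0.0129 with IL-10 and log2 change 1.70, adjusted p = 0.023 with stattic). In the IL-10 comparison the call was lost without V1 (adjusted p = 0.0586) or V2 (0.0505). In the stattic comparison it was lost without V1 (0.0844) or V2 (0.0821) or S3 (0.0529), and with limma on log2(FPKM + 1).

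Lamb1, a beta chain that can join Lama1 and Lamc1 in one trimer, was at 12.1, 9.60 and 9.62 CPM in vehicle, 105, 30.1 and 24.2 with hemin, 18.9, 22.5 and 31.4 with IL-10 and 25.0, 18.1 and 39.3 with stattic. H1 was far above the other hemin libraries, and all hemin-treated libraries lay above vehicle. Hemin raised it (log2 change 2.35, SE 0.51, adjusted p = 0.00918), and without H1 the change was 1.37 with adjusted p = 0.0199. The difference from vehicle did not pass the test with IL-10 (log2 change 1.22, adjusted p = 0.101) or with stattic (log2 change 1.40, adjusted p = 0.0598), and the call depended on the setting. With IL-10 it passed in 3 of 24 alternatives: the fit of only the 2 groups (adjusted p = 0.00949), without H1 (0.0193) and without H1 and S3 (0.0063). With stattic it passed in 8 of 24, which included DESeq2 (adjusted p = 0.0241), the fit of only the 2 groups (0.0375), the replicate block (0.0429), the length correction (0.0481), both together (0.0383), and the fits without H1 (0.0109), without H3 (0.0411) and without H1 and S3 (0.0182).

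Lamc3, a gamma chain, was at 0.186, 0.183 and 0.0952 CPM in vehicle, 8.53, 1.95 and 1.00 with hemin, 0.216, 0.211 and 1.31 with IL-10 and 0.524, 0 and 2.52 with stattic. It rose with hemin (log2 change 4.52, SE 1.31, adjusted p = 0.0297), with the highest value in H1, from 5 counts over the vehicle group to 115. Without any 1 of V1, V2 and V3 or H1 and H2 the adjusted p was 0.0915, 0.0866, 0.0998, 0.118 and 0.0521. The log2 change without H1 was 3.14. It was not called with IL-10 (log2 change 1.83, adjusted p = 0.379) or with stattic (log2 change 2.59, adjusted p = 0.182).

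Fibroblast markers moved with Lama1, Lamb1 and Lamc3. All 7 were listed and tested, 5 were called higher with hemin, and their sum was 7.68 to 11.1 CPM in vehicle, 356, 44.6 and 59.5 CPM in H1, H2 and H3, 23.4 to 68.9 CPM with IL-10 and 15.3 to 110.4 CPM with stattic. H1 had the highest sum as well as the highest Lama1, Lamb1 and Lamc3. Dcn and Lum were at 0 in 1 library each, and the other 5 markers had counts in all 12. Of the 8 mural cell markers, which summed to 41.4 to 102 CPM in vehicle and 27.02 to 176 CPM elsewhere, 2 of 6 tested were called higher with hemin. The 8 endothelial markers summed to 2.76 to 14.1 CPM in vehicle and 35.8 to 55.9 CPM in the hemin-treated libraries, with 4 of 5 tested called higher with hemin, and Cldn5 was at 0 in 6 libraries and Tie1 in 9. Over all genes tested, 11.7% were called higher with hemin. The part of these cell types in the laminin results was not tested.

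**Figure D4:**
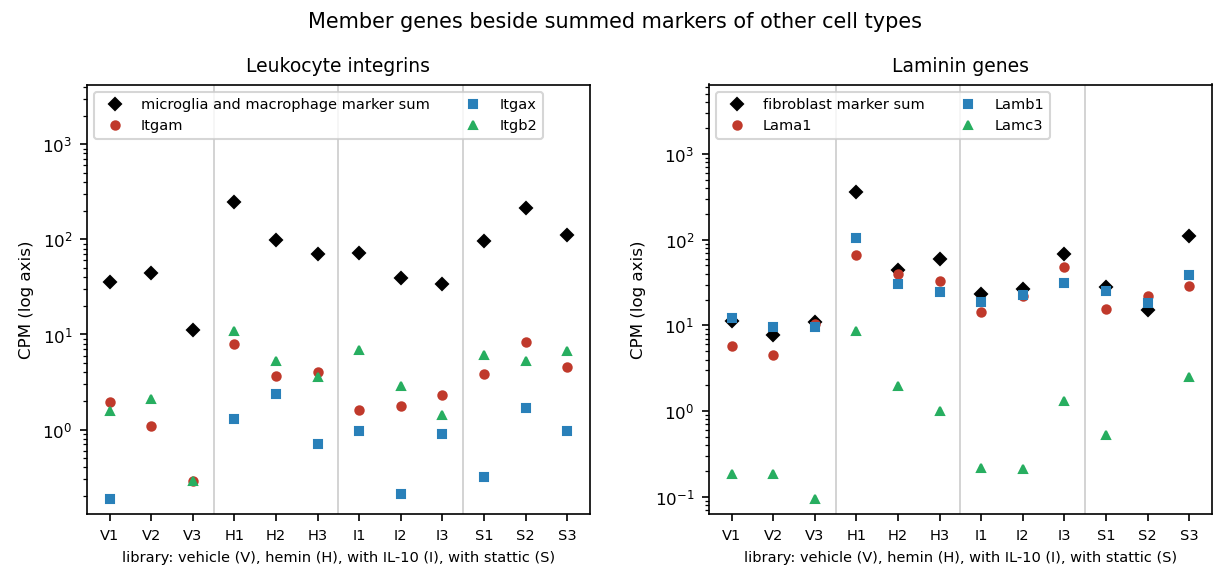
CPM on a log axis of leukocyte integrin genes beside the summed microglia and macrophage markers (left) and of 3 laminin genes beside the summed fibroblast markers (right), by library (replicate number after V vehicle, H hemin, I hemin with IL-10, S hemin with IL-10 and stattic). Libraries at 0 have no point. In H1 the fibroblast sum was 356 CPM and Lamb1, Lama1 and Lamc3 had their highest values.

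Lamb3, a beta chain of epithelial basement membranes, had 1 count in each vehicle library, 3 in all, against 22 with hemin, 40 with IL-10 and 49 with stattic. In CPM this was 0.0928, 0.0914 and 0.0952 in vehicle, 0.297, 1.43 and 0.501 with hemin, 2.70, 1.05 and 0.505 with IL-10 and 2.10, 2.83 and 0.240 with stattic. The ratio to vehicle, with an exact 95% interval for counting error only, was 7.92 (2.38 to 41.3) for hemin, 15.0 (4.77 to 75.7) with IL-10 and 19.2 (6.19 to 96.3) with stattic. Lamb3 was called with IL-10 (adjusted p = 0.0285) and with stattic (0.0182) and not with hemin alone (0.088). Its difference between hemin with and without IL-10 was not called (log2 change 0.92, 95% CI -0.91 to 2.75). Without V1, V2 or V3 or I1 or I2, the adjusted p with IL-10 was 0.0943, 0.0843, 0.0861, 0.11 and 0.0587, and without V1, V2 or V3 or S2, that with stattic was 0.0678, 0.0604, 0.063 and 0.0541.

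Itgb4, the beta chain of hemidesmosomes and partner of Itga6, rose from a low level. It was at 0.464, 0.274 and 0.381 CPM in vehicle, 1.78, 3.59 and 2.60 with hemin, 1.94, 2.53 and 1.51 with IL-10 and 2.10, 2.51 and 1.56 with stattic. No hemin-treated library overlapped with vehicle. The change was called in all 3 comparisons with vehicle (log2 change 2.79, SE 0.48, adjusted p = 0.00311 for hemin, log2 change 2.38, adjusted p = 0.0069 with IL-10 and log2 change 2.43, adjusted p = 0.00558 with stattic), and in the 22 alternative settings in which the gene was tested. The vehicle level rests on 12 counts in 3 libraries, and even with hemin Itgb4 was at 0.570 ± 0.243 FPKM beside 167 ± 13.8 for Itgb1.

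**Figure D5:**
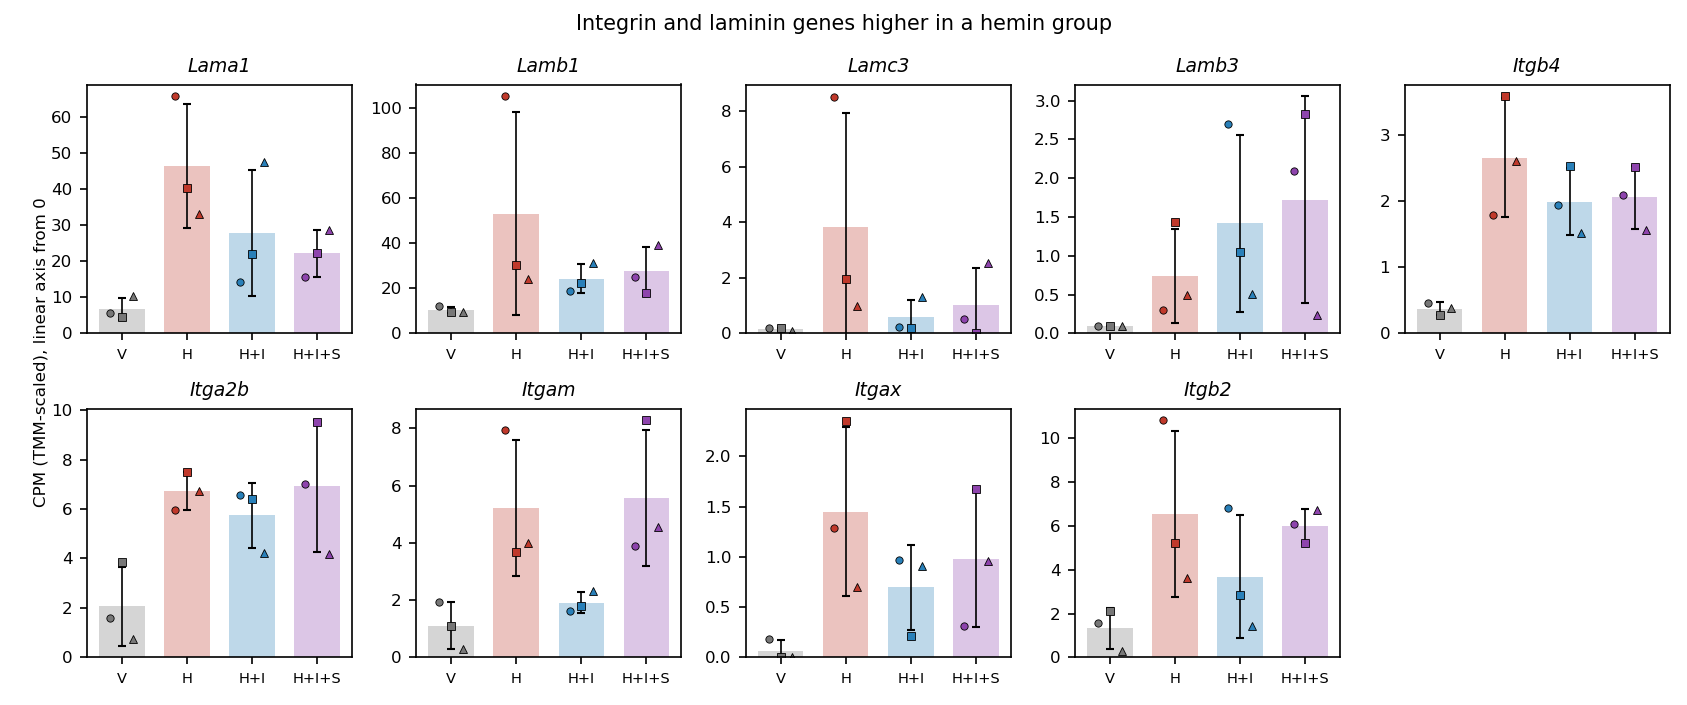
CPM of 9 genes called higher in at least 1 comparison with vehicle, by group (V vehicle, H hemin, H+I hemin with IL-10, H+I+S hemin with IL-10 and stattic), with bars for the mean, error bars for the SD (cut at 0) and circles, squares and triangles for replicates 1, 2 and 3. All hemin-treated points of Lama1, Lamb1, Lamb3, Itgb4, Itga2b and Itgax lie above the vehicle points. For Itgax the margin is small (0.211 CPM in I2 against 0.186 in V1). H1 is far above the other hemin libraries for Lamb1 and Lamc3.

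The leukocyte integrins rose with hemin from levels near the limit of detection. Itgam and Itgax encode the alpha chains CD11b and CD11c of myeloid cells, and Itgb2 encodes their common beta chain CD18. Itgam was at 1.95, 1.10 and 0.286 CPM in vehicle, 7.93, 3.69 and 4.01 with hemin, 1.62, 1.79 and 2.32 with IL-10 and 3.88, 8.27 and 4.56 with stattic. The hemin and stattic libraries all lay above vehicle, and the IL-10 libraries overlapped with vehicle. It was called for hemin (log2 change 2.22, SE 0.59, adjusted p = 0.0209) and with stattic (log2 change 2.31, SE 0.59, adjusted p = 0.0164) and not with IL-10 (log2 change 0.77, adjusted p = 0.381). The hemin call was lost without V2 (adjusted p = 0.0689), V3 (0.0609) or H1 (0.0732), and the stattic call without V2 (0.0542) or S2 (0.052). In the fit of only the 2 groups compared the stattic call was lost as well.

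Itgb2 was at 1.58, 2.10 and 0.286 CPM in vehicle, 10.8, 5.23 and 3.61 with hemin, 6.798, 2.84 and 1.41 with IL-10 and 6.08, 5.24 and 6.72 with stattic. Hemin and stattic libraries lay above vehicle, and I3 fell within the vehicle range. It was called for hemin (log2 change 2.29, SE 0.70, adjusted p = 0.0357) and with stattic (log2 change 2.17, adjusted p = 0.0395), and not with IL-10 (log2 change 1.46, adjusted p = 0.153). The hemin call was lost without V1, V2 or V3, H1 or H2 or I2, with adjusted p = 0.0902, 0.0531, 0.102, 0.128, 0.0718 and 0.0521 in turn. The stattic call was lost without V1, V2 or V3, H2, I2 or S1, S2 or S3, with adjusted p = 0.0958, 0.0537, 0.111, 0.0571, 0.0575, 0.0588, 0.0608 and 0.0695 in turn. Library totals in place of TMM factors and the fit of only the 2 groups compared also lost the stattic call.

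Itgax had 2 counts in the 3 vehicle libraries together, 43 with hemin, 20 with IL-10 and 27 with stattic. In CPM it was at 0.186, 0 and 0 in vehicle, 1.29, 2.36 and 0.701 with hemin, 0.971, 0.211 and 0.909 with IL-10 and 0.314, 1.68 and 0.960 with stattic. The ratio to vehicle, with its counting interval, was 23.2 (6.05 to 198) for hemin, 11.2 (2.73 to 99.2) with IL-10 and 15.9 (3.99 to 138) with stattic. It was called for hemin (adjusted p = 0.016) and with stattic (0.0279), and missed the threshold with IL-10 (0.0573). Without V2, V3 or H2 the hemin value was 0.0614, 0.0625 and 0.065, and without V2, V3 or S2 the stattic value was 0.0892, 0.0923 and 0.0889.

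The sum of microglia and macrophage markers, like these 3 genes, was higher in every hemin and stattic library than in vehicle. All 17 markers were listed and 16 tested, of which 7 were called higher with hemin, 1 with IL-10 and 10 with stattic, and 0 lower. Over all genes, 11.7%, 12.1% and 14.7% were called higher in these comparisons with vehicle. The marker sum was 35.6, 44.1 and 11.04 CPM in vehicle, 247, 97.6 and 70.9 with hemin, 72.1, 39.3 and 33.9 with IL-10 and 96.6, 215 and 111 with stattic. Within the hemin group H1 had the highest sum, as for Itgam and Itgb2, while Itgax was highest in H2. With IL-10 the sum was highest in I1, as for Itgb2 and Itgax, while Itgam was lowest there. With stattic S2 had the highest sum, as for Itgam and Itgax, while Itgb2 was lowest there. Tmem119 and Aif1 were at 0 in 2 libraries each, and the other 15 markers had counts in all 12. Markers of T, B and natural killer cells and neutrophils summed to 0 to 0.371 CPM in vehicle and 0.601 to 1.85 CPM in the hemin-treated libraries, with 6 of 12 at 0 in all 12 libraries. The 1 tested, the B cell marker Cd79a, was called higher with hemin (log2 change 3.32, adjusted p = 0.0286) and with IL-10 (log2 change 3.33, adjusted p = 0.029), and not with stattic (log2 change 2.57, adjusted p = 0.0769). The part of myeloid and lymphoid cells in the integrin results was not tested.

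Itgam and Itgax lie near each other on chromosome 7, and their promoters are shown because both genes rose with hemin while sharing none of the motifs searched. RefSeq promoter entries (GRCm38.p6) were matched by symbol for 23 of the 37 genes, and the 250 bases before each start were searched on both strands for TGANTCA (the AP-1 site), TGACNNNGC (the core of the antioxidant response element, to which NRF2 and BACH1 bind) and GAGGAA (a core bound by PU.1, the myeloid factor encoded by Spi1). Of 32851 promoters of this length, 6.75%, 10.2% and 23.3% hold the 3 motifs. The Itgam stretch is chr7:128062390-128062639 on the plus strand, with 2 PU.1 cores in capitals, 1 on each strand. The Itgax stretch is chr7:128129300-128129546 on the plus strand, with 1 AP-1 site in capitals. The Lamb1 stretch, shown for the laminin chain with the highest level among those that rose, is chr12:31265043-31265233 on the plus strand and holds none of the 3 motifs, while the full 250 bases hold 1 PU.1 core.
Itgam: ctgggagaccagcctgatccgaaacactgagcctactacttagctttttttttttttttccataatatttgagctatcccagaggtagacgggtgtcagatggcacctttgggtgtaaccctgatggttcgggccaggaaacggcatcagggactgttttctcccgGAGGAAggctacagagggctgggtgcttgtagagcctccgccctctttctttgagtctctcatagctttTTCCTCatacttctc
Itgax: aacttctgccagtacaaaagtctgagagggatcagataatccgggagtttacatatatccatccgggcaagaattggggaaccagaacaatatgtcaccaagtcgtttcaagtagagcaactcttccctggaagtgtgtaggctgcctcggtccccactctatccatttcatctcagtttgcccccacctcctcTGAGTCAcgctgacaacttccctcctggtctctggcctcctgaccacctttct
Lamb1: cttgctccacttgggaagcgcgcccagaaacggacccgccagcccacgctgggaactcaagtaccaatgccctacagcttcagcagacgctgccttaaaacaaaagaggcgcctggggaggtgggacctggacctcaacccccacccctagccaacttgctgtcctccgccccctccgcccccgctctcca
A match of letters is a description and shows no binding, and the Itgax and Lamb1 stretches stop before the first annotated exon base.

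Itga2b, the platelet and megakaryocyte chain that binds fibrinogen with Itgb3, was at 1.58, 3.84 and 0.762 CPM in vehicle, 5.95, 7.48 and 6.71 with hemin, 6.58, 6.42 and 4.24 with IL-10 and 7.02, 9.53 and 4.20 with stattic. All 9 hemin-treated libraries lay above the vehicle libraries. It was called for hemin (log2 change 1.70, SE 0.51, adjusted p = 0.0354) and with stattic (log2 change 1.74, adjusted p = 0.029) and not with IL-10 (log2 change 1.47, adjusted p = 0.06). The hemin call was lost without V1 or V3, H1, H2 or H3 or I2, with adjusted p = 0.126, 0.11, 0.0613, 0.108, 0.0677 and 0.0571. The stattic call was lost without V1 or V3 or S2, with adjusted p = 0.107, 0.0903 and 0.0858, and with library totals in place of TMM factors the hemin and stattic values were 0.0519 and 0.0508. In the fit of only the 2 groups compared the stattic call was lost as well. Its partner Itgb3 was at 3.29 ± 0.607 CPM in vehicle and 3.07 ± 1.29 with hemin (adjusted p = 0.903). Among 6 platelet markers, Ppbp was at 0 in 11 of 12 libraries, Pf4 did not exceed 0.314 CPM, and of the 2 tested, Gp1ba and Gp5, Gp5 was called higher with hemin. Their part in the Itga2b result was not tested.

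The remaining alpha chains were low and none was called in any comparison. Among collagen receptor chains, Itga1 was at 10.3 ± 3.17 CPM in vehicle, 9.89 ± 3.44 with hemin, 7.72 ± 2.57 with IL-10 and 4.28 ± 2.87 with stattic. Itga2 was at 6.35 ± 4.38, 3.42 ± 0.794, 3.57 ± 0.596 and 3.82 ± 1.81 CPM in the same order. Itga10 was at 1.18 ± 0.178, 2.82 ± 1.01, 2.53 ± 0.887 and 2.04 ± 0.928 CPM, and every hemin library was above every vehicle library (adjusted p = 0.0901). The other collagen receptor chain, Itga11, was not tested.

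Itga3, a laminin receptor chain of epithelia, was at 5.32 ± 1.19 CPM in vehicle, 7.86 ± 4.73 with hemin, 6.70 ± 2.04 with IL-10 and 6.797 ± 3.42 with stattic. Itga8, which binds nephronectin, was at 9.82 ± 1.31, 13.4 ± 7.73, 16.3 ± 5.90 and 13.0 ± 13.4 CPM in that order. Itga9, a receptor chain for tenascin-C and VCAM-1, was at 8.03 ± 1.76, 15.5 ± 4.16, 9.61 ± 5.38 and 12.1 ± 8.11 CPM, and its hemin libraries lay above its vehicle libraries (adjusted p = 0.186). All 3 genes had intervals for the hemin change that included 0.

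Itga4, the lymphocyte and monocyte chain that binds VCAM-1, was at 2.83 ± 0.932 CPM in vehicle, 3.20 ± 1.65 with hemin, 6.83 ± 2.64 with IL-10 and 1.89 ± 0.906 with stattic. Itgb7, its partner on gut-homing lymphocytes, was at 3.06 ± 1.56, 0.940 ± 0.809, 0.553 ± 0.293 and 2.36 ± 1.74 CPM in that order. Neither was called, and the hemin change of Itgb7 was -1.69 with a 95% CI of -3.50 to 0.13. Exons of Itga4 overlap those of Cerkl on the other strand in GENCODE M21, and those of Itgam overlap a predicted gene, Gm49368, on the same strand that is not among the listed genes. The sources do not say that strand was used in counting, and without it reads of opposite-strand pairs cannot be told apart.

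Lama4, an alpha chain of vessel walls, was at 13.4 ± 2.07 CPM in vehicle, 23.9 ± 14.8 with hemin, 14.4 ± 2.48 with IL-10 and 10.2 ± 2.71 with stattic. Lama2, the chain of the muscular dystrophy with white matter changes (above), was at 7.42 ± 7.25, 8.598 ± 8.44, 8.43 ± 4.34 and 7.14 ± 7.41 CPM in that order. It ranged from 1.33 to 18.0 CPM over single libraries. Lama3, an alpha chain of epithelia, was at 1.39 ± 0.922 CPM in vehicle, 1.12 ± 0.987 with hemin, 1.83 ± 0.907 with IL-10 and 1.63 ± 0.993 with stattic. Of the 11 laminin chains, 4 were called with hemin (36.4%), where 20.9% of all genes were. The shares were 42.9% of the 7 tested beta chains and 21.4% of the 14 tested alpha chains. With IL-10 and with stattic, 27.3% of the laminin chains were called in each, where 21.0% and 24.9% of all genes were.

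The untested genes were near 0. Itgal, the lymphocyte chain CD11a, had 5 counts in the vehicle group and 49 with hemin, 7 with IL-10 and 12 with stattic (0.154 ± 0.193, 1.64 ± 0.760, 0.240 ± 0.253 and 0.434 ± 0.170 CPM). Itga11, a collagen receptor chain of fibroblasts, had 2 counts in vehicle and 34 with hemin (0.0614 ± 0.0532 and 1.13 ± 1.26 CPM), of which 26 were in H1, and 8 and 6 in the other 2 groups (0.275 ± 0.206 and 0.225 ± 0.128 CPM). Itgae, the chain that binds E-cadherin, had 3 to 24 counts per group and ranged from 0 to 1.64 CPM. Itgb6, an epithelial beta chain, had 0 vehicle counts and 9 to 11 in the other groups (0 to 0.733 CPM), with 0 in S3. Taking 3 counts over the vehicle group as the floor, the ratio was 3.96 with hemin, 3.37 with IL-10 and 4.31 with stattic. These ratios leave out the counting error of the hemin-treated groups. Itgad, the fourth partner of Itgb2, had 1 count in 1 stattic library.

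With IL-10 added to hemin, none of these genes passed the test against hemin alone. By edgeR's quasi-likelihood test 0 of 32 members and 0 of 13967 genes (0%) were called, while 3 members and 337 genes (2.41%) had an unadjusted p under 0.05. DESeq2 called 3 genes and 0 members, and limma on log2(FPKM + 1) called 0 of each. The 3 members were Itgam (log2 change -1.44, 95% CI -2.68 to -0.20, unadjusted p = 0.0259), Lamb1 (log2 change -1.13, 95% CI -2.20 to -0.06, unadjusted p = 0.0395) and Lamc3 (log2 change -2.68, 95% CI -5.15 to -0.22, unadjusted p = 0.035), each lower with IL-10 and each with adjusted p = 0.999. Of these, Itgam was the gene whose hemin and IL-10 libraries did not overlap, where 8.68% of all genes did not overlap (5.08% lower). Among the 16 tested microglia and macrophage markers, 8 were lower without overlap in this comparison, and fibroblast markers were lower for 7 of 7 by the sign of the change, 0 of them called. Without H1 the Lamb1 change was -0.16.

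For the abundant chains the IL-10 comparison gave intervals around 0. The change was 0.21 for Itgb1 (95% CI -0.32 to 0.74), -0.24 for Itgb8 (95% CI -0.71 to 0.23) and -0.03 for Itgav (95% CI -0.85 to 0.80). Over the 32 genes the median was -0.19, against -0.01 over all genes. Without I3 these medians were -0.02 and -0.04. The groups were of 3 libraries each, and an interval such as that of Itgb2 (-2.25 to 0.59) includes both no change and a fall of 2 on the log2 scale.

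Adding stattic to hemin with IL-10 likewise gave 0 called members and 0 called genes (0%) in edgeR, with 4 members and 523 genes (3.74%) at an unadjusted p under 0.05. DESeq2 and limma also called 0. The 4 members were Itga4 (log2 change -1.84, unadjusted p = 0.00457), Itgb3 (log2 change 1.31, 95% CI 0.28 to 2.34, unadjusted p = 0.0171), Itgam (log2 change 1.54, 95% CI 0.30 to 2.78, unadjusted p = 0.0191) and Itgb7 (log2 change 2.06, 95% CI 0.13 to 3.98, unadjusted p = 0.0381), all with adjusted p = 0.921. Itga4 was lower without overlap, and Itgam and Itgb3 were higher without overlap, where 5.36% of all genes did not overlap (3.15% higher and 2.21% lower). Itga4 was at 6.798, 4.21 and 9.49 CPM with IL-10 and 2.41, 2.41 and 0.840 with stattic added, against 1.86, 2.92 and 3.71 in vehicle and 2.78, 5.02 and 1.80 with hemin. Itgb3 was at 2.27, 2.74 and 1.41 and 4.19, 8.59 and 3.12 CPM, with S2 the highest. Of the 16 tested microglia and macrophage markers, 8 were higher without overlap when stattic was added. The IL-10 and stattic comparisons share the libraries with IL-10.

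Against vehicle, hemin with IL-10 gave 5 called members of 32, with Itgb4, Lama1 and Lamb3 among the higher and Itgb8 lower, where 21.0% of all genes were called (12.1% higher and 8.81% lower). At an unadjusted p under 0.05 there were 11 members (35.4% of all genes), and the groups did not overlap for 10 higher and 3 lower members (49.2% of all genes). Hemin with IL-10 and stattic gave 9, with Itga2b, Itgam, Itgax, Itgb2, Itgb4, Lama1 and Lamb3 among the higher and Itgb8 lower, where 24.9% of all genes were called (14.7% higher and 10.2% lower). At an unadjusted p under 0.05 there were 12 members (38.5% of all genes), and 9 were higher and 2 lower without overlap (41.1% of all genes). The edgeR fit had 8 of the 9 stattic calls higher and 1 lower, while limma, with 22 members tested, called 3 higher and 4 lower on log2(FPKM + 1) and 4 higher and 5 lower on log2(FPKM + 0.1).

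The counts of called members fell when some single libraries were left out and rose without others. Those over all genes also fell or rose, not always in the same direction. With IL-10 the 5 members and 2927 genes called became 2 and 1202 without V1, 3 and 1468 without V3, and 3 and 1272 without I2. With stattic the 9 members and 3472 genes became 4 and 1608 without V1, 4 and 2028 without V2, 4 and 1758 without V3, and 4 and 2693 without S2. In the hemin comparison the 10 members and 2917 genes became 4 and 1472 without V3, 5 and 1309 without H2, 6 and 1626 without V2, and 6 and 2207 without H1. Rises in both were to 12 and 4256 without S3 for hemin, to 7 and 3276 without S1 with IL-10, and to 10 and 3711 without S1 with stattic. Without H3 the members called rose to 12 for hemin and 11 with stattic, while the genes called fell to 2311 and 3385. With the replicate number as a block, which the labels do not define, the member counts were 11 for hemin, 7 with IL-10 and 12 with stattic, and the counts over all genes 4000, 3929 and 4422.

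Among genes that work with integrins and laminins, 3 lists were counted against the 20.9% of all genes called with hemin (11.7% higher and 9.15% lower). Of 28 tested integrin ligands, 12 were called higher and 2 lower. Spp1, which encodes osteopontin, rose from 11.4 ± 2.21 to 127 ± 26.5 CPM (log2 change 3.48, adjusted p = 4.23e-05). Thbs1, which encodes a thrombospondin, rose from 1.80 ± 0.352 to 101 ± 37.6 CPM (log2 change 5.80, adjusted p = 0.00024), and Ccn1, a matricellular growth-related protein, from 11.1 ± 2.14 to 161 ± 40.6 CPM (log2 change 3.85, adjusted p = 0.000246). With IL-10, 7 ligands were called higher and 2 lower than vehicle, with Spp1 at 3.67 and Thbs1 at 5.37 on the log2 scale, and with stattic 6 and 2, with Spp1 at 3.28 and Ccn1 at 3.54. As shares of those tested, 32.1% of the ligands were called with IL-10 and 28.6% with stattic, where 21.0% and 24.9% of all genes were. The median log2 change of the ligands with hemin was 1.01, against 0.03 over all genes.

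The ligand count with hemin was lower without H1, the only library left out for this list. Fewer genes over all were also called without H1 and without H2 (above), so the drop cannot be assigned to H1 itself. Without H1, an alternative chosen after seeing the data, 7 ligands were called higher and 1 lower (28.6%, with 15.5% of all genes), and Emilin1, Lrrc32, Nid1, Postn and Vtn were among those no longer called. These 5, named after their values were seen, had SDs above their means with hemin. Nid1, a basement membrane protein that binds laminin, was at 13.1 ± 5.77 to 84.2 ± 94.1 CPM in vehicle and hemin (adjusted p = 0.042), Postn, the matricellular protein periostin, at 1.32 ± 1.17 to 18.7 ± 25.3 CPM (adjusted p = 0.028) and Vtn, which encodes vitronectin, at 0.0619 ± 0.107 to 6.13 ± 9.13 CPM (adjusted p = 0.0233). Vtn is also in the mural cell marker list. H1 had the highest fibroblast marker sum (356 CPM), and the part of fibroblasts and mural cells in the ligand count was not tested.

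Of 39 tested genes of the intracellular adhesion complex, 3 were called higher and 7 lower with hemin. The share of 25.6% lies near the 20.9% of all genes for both directions together. Most of these calls were lower, while over all genes more were called higher (11.7%) than lower (9.15%). Without H1 there were 2 called higher and 7 lower. Tns3, a tensin that links integrin tails to actin, fell from 629 ± 89.1 to 99.4 ± 16.0 CPM (log2 change -2.66, adjusted p = 4.46e-05). Fermt3, the kindlin of blood cells, rose from 1.05 ± 0.587 to 15.7 ± 4.96 CPM (log2 change 3.89, adjusted p = 0.00103), while the microglia and macrophage marker sum was also higher (above), and its part was not tested. Tln2, a talin that activates integrins, fell from 136 ± 6.28 to 51.1 ± 4.56 CPM (log2 change -1.41, adjusted p = 0.00359). The counts were 3 higher and 6 lower with IL-10 (23.1%, with 21.0% of all genes) and 4 and 4 with stattic (20.5%, with 24.9% of all genes), with Tns3 at -2.47 and -2.32 and Fermt3 at 3.45 and 3.28. The median over the list with hemin was -0.01.

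Of 27 tested genes of other laminin receptors, 1 was called higher and 6 lower with hemin. The share of 25.9% is again near that over all genes for both directions together. Here too most calls were lower, while over all genes 11.7% were called higher and 9.15% lower. Without H1 there were 0 called higher and 6 lower. Dag1, which encodes dystroglycan, a laminin receptor outside the integrin family, fell from 358 ± 39.9 to 127 ± 33.6 CPM (log2 change -1.49, adjusted p = 0.0121). Pomk, a kinase needed for the sugar chain by which dystroglycan binds laminin, fell from 32.5 ± 0.990 to 13.8 ± 1.85 CPM (log2 change -1.23, adjusted p = 0.00445). Pomgnt1, an enzyme of the same chain, also fell, and Sdc1, a syndecan, rose; both are named after their values were seen. With IL-10, 0 were called higher and 4 lower (14.8%, with 21.0% of all genes), with Pomk at -0.93 and Dag1 at -1.25. With stattic the counts were 1 and 7 (29.6%, with 24.9% of all genes), with Dag1 at -1.51 and Pomk at -0.90. In the comparisons of IL-10 with hemin and of stattic with IL-10, 0 genes of the 3 lists were called.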

How the data were processed

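The 12 RNA-seq libraries were built with a dUTP second strand and read from DNA nanoballs, per the labels' protocols. Tools named without version or role, per the submitters' processing notes, are RSEM, Bowtie2, Bowtie, HISAT, TopHat, Cufflinks, StringTie and CASAVA. For the genome build, none was given in the sources used here. Per the file headers, the authors deposited for each gene an expected count (an estimate that can be fractional), an FPKM and a transcript length that varies with the library. Genes missing from a file counted as 0.

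Expected counts were rounded and tested with edgeR 4.0.16 (R 4.3.3): filterByExpr, TMM factors, a robust quasi-likelihood fit of 1 mean per group over all 12 libraries, and Benjamini-Hochberg adjustment over 13967 genes. CPM used the TMM-scaled library sizes. The code was tested on simulated data. Alternatives were library totals, DESeq2 size factors, DESeq2 1.42.0, limma 3.58.1 on log2(FPKM + 1) and log2(FPKM + 0.1), other filters, only the 2 groups compared, a length correction, a replicate block and each library left out. Replicates differed by more than sampling noise, with a chi-square of 14.6 to 176 per degree of freedom. Counting intervals cover counting error only, and ratios to a floor leave out the counting error of the higher group.

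Values in every library are given for members called in any comparison or with a group mean of at least 5 FPKM, group means for those with a group mean of at least 1 CPM, and ranges for the rest. Of each partner list, up to 3 genes with the smallest p in hemin versus vehicle and up to 2 in any other comparison with calls are named. Results of some genes under this rule are not reported here, and counts include them. The members, lists and rule were chosen with earlier results of these data known. Of 33 ligand symbols, 3 being older or alternative ones, 30 were listed.

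The labels number the replicates without saying what a number marks. Between hemin with IL-10 and hemin, libraries of the same number deviated together (correlations of their deviations 0.37, 0.17 and 0.61, each over 0.1), so this comparison was also fitted as paired. The other comparisons did not meet that threshold.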

Additional observations from a re-analysis of the deposited data

How the results depend on the processing

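Each comparison was recomputed under 24 alternatives. For hemin versus vehicle (10 called) limma gave 5 on log2(FPKM + 1) and 6 on log2(FPKM + 0.1), where fewer genes passed the filter (22 members tested), and leaving out 1 library gave 4 to 12. For hemin with IL-10 versus vehicle (5 called) DESeq2 gave 8, limma 3 with each pseudocount, the length correction 8 and the replicate block with length correction 11, and leaving out 1 library gave 2 to 7. For hemin, IL-10 and stattic versus vehicle (9 called) a fit of only the 2 groups compared gave 5, and leaving out 1 library gave 4 to 11. Over all genes the same alternatives gave 2605 and 2558 (limma) against 2917 for hemin, 4039, 2619, 2627, 3687 and 5009 against 2927 with IL-10, in the order above, and 1650 against 3472 with stattic. Over all 24 alternatives the calls ran from 1309 to 4797, 1202 to 5009 and 1608 to 4714 genes. The cause was not tested, beyond fewer samples or genes in the fit. For the other 2 comparisons every alternative called 0 members. The replicate block alone gave 11, 0, 0, 7 and 12 for hemin, IL-10 added, stattic added, and hemin with IL-10 and with stattic against vehicle, and 4, 4, 4, 2 and 4 of 6 libraries correlated best with their own number. In the paired comparison, of IL-10 with hemin, the block changed no call of a member, and over all 13967 genes it called 1 against 0 without it.

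Of 24 called pairs of gene and comparison, 8 were called in every alternative run: Itgb8 and Itgb4 in 3 comparisons each, and Lama1 and Lamb1 for hemin. Of 552 alternative values of the called pairs, 74 were no longer called, 21 values of uncalled pairs became called, and 0 reversed. Signs differed in 68 values called in neither fit. In the stattic comparison with vehicle, Itga6 and Itgb5 were called lower by limma on log2(FPKM + 1) (adjusted p = 0.0342 and 0.042), Itga6 and Itgav with the replicate block (0.0438 and 0.0387) and without S1 (0.0422 and 0.0119). Without the 2 libraries of steepest length trend, Itgam, Itgb2 and Lamc3 lost the hemin call (adjusted p = 0.0599, 0.119 and 0.0561), and Itgax and Itgb2 the stattic call (0.0514 and 0.062). Library totals moved the median log2 change of all genes from 0.03 to -0.07, from 0.00 to -0.13 and from 0.10 to -0.14 in the 3 comparisons with vehicle. In limma on log2(FPKM + 1) and log2(FPKM + 0.1) they were -0.11 and -0.12, -0.15 and -0.17, and -0.19 and -0.22. The members' median in the stattic comparison was -0.15 and -0.25 there, against 0.38. Without the 2 libraries of steepest length trend the members' median with hemin was 0.14. Depth limits Itgax, Lamb3, Lamc3 and Itgb4, which had 2 to 12 counts over the vehicle group.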

Other observations

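The transcript length that the files give for Itgb8, which weights its transcripts by their abundance in a library, was 6650, 6560 and 6834 bases in V1, V2 and V3. It was 7577, 7842 and 8045 bases with hemin, 6872, 8019 and 7958 with IL-10 added and 7204, 7888 and 8143 with stattic added, so all 9 hemin-treated libraries lay above vehicle. By exact two-sided permutation tests over 5 comparisons, the 3 with vehicle, which share its libraries, gave p = 0.1 each, the smallest that 3 against 3 libraries allow (adjusted 0.167), IL-10 against hemin gave p = 0.8 and stattic added gave p = 0.7 (adjusted 0.8 for both). Itgb8 was singled out after its values were seen. From vehicle to hemin, Itgb8 went from 34.9 ± 3.99 to 13.4 ± 1.66 FPKM and from 214 ± 27.8 to 104 ± 10.3 CPM. The length of Itgb4 ranged from 3560 to 6009 bases, at 3 to 35 counts per library.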
